A study of Mus musculus with 4 samples.

Results

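The cells described here were the Ly6C-high bone marrow monocytes with the highest share of RNA from interferon-induced genes, 175 of the 8718 cells that could be given to a mouse. For each cell, the UMIs (unique molecular identifiers, 1 per captured RNA molecule) of Ifit1, Ifit2, Ifit3, Rsad2, Isg15, Cxcl10, Usp18 and Irf7 were divided by all of its gene UMIs, and the 2% of cells with the largest share were taken within each sex, so that the cells were chosen by the measured levels of these 8 genes. This gave 25 of 1226 male cells and 150 of 7492 female cells, which are called high-score cells below, while the remaining cells of the same mice are called other cells. The study compared young with old C57BL/6 mice of wild-type genotype, and each group held 5 mice. The males were studied at 14 weeks (young) and 27 months (old), the females at 15 weeks (young) and 26.5 months (old). Every mouse carried its own hashtag antibody, and the 10 mice of a sex were pooled into 1 library, so that sex and experiment cannot be told apart. Cells were used where over 200 genes were detected, under 5% of UMIs were mitochondrial and 1 hashtag held at least 70% of the hashtag UMIs. The male and female pools shared 0 cell barcodes. The hashtag of 1 mouse stood apart, since 1278 of the 3075 barcodes led by the hashtag of young female 4 (41.6%) fell short of the 70%, against 11.7% to 25.8% in the other females. Without young female 4 the difference in share between old and young females given below was 0.251 percentage points (exact permutation test, p = 0.587), 2346 genes were called between the classes and CD11b and CD115 still differed.

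Type I interferons bind a receptor of the chains IFNAR1 and IFNAR2, and the kinases bound to it then activate transcription factors, among them STAT2 and IRF9, which switch on genes that carry an interferon-stimulated response element (ISRE). Interferon gamma acts through its own receptor on genes with gamma-activated sites (GAS), and the sets of genes that both kinds of interferon induce overlap widely. Monocytes show such a response in infection, and a low constant interferon signal is known in healthy bone marrow too.

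The genes of the score code for proteins of this response. Ifit1, Ifit2 and Ifit3 bind foreign RNA or each other, Rsad2 is the antiviral enzyme viperin, Isg15 is a ubiquitin-like modifier, Usp18 removes it and dampens the receptor, Cxcl10 is a chemokine for T cells and Irf7 is a transcription factor that amplifies interferon production. The 200 bases before the start site are shown for 5 of them because they were chosen to move together, with the core of the ISRE in capitals (GAAA, any 2 bases and GAAA, or TTTC, any 2 bases and TTTC where it lies on the other strand). The windows came from RefSeq on GRCm38.p6, which held 7 of the 8 genes.
Ifit1 (chr19:34640689-34640888, plus strand): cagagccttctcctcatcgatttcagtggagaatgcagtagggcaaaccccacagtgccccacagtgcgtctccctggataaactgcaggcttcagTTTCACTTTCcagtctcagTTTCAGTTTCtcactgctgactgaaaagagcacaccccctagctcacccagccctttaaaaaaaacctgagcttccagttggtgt
Ifit3 (chr19:34583329-34583528, plus strand): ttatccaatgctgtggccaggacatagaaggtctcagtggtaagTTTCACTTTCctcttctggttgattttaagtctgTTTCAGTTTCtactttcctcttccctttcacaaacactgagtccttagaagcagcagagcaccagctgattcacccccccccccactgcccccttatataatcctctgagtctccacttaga
Isg15 (chr4:156200819-156201018, minus strand): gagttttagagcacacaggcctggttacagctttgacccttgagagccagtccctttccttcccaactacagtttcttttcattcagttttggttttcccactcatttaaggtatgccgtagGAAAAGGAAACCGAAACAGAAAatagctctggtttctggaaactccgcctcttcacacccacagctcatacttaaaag
Rsad2 (chr12:26456453-26456652, minus strand): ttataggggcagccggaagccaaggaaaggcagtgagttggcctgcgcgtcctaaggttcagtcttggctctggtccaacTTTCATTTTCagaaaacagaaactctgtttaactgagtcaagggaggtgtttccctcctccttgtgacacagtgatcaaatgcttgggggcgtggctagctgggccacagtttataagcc
Cxcl10 (chr5:92348890-92349089, minus strand): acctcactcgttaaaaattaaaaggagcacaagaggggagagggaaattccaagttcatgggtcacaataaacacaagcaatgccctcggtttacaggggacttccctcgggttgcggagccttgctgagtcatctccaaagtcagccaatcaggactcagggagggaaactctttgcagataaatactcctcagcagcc
Isg15 carried 3 overlapping matches, Ifit1 and Ifit3 carried 2 each and Rsad2 carried 1, while the windows of Cxcl10, Ifit2 and Irf7 held none of these letters. The core was found in 4 of the 8 windows of these genes (50%) and in 2.27% of the 32851 windows of the whole table. The GAS core (TTCNNNGAA) was found in 0 of the 8 windows of these genes, against 5.49% of all windows. A match describes the letters and not a bound site.

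The score that chose the cells separated them from the bulk of cells but not by a gap. High-score cells of females held 0.488% of their UMIs in the 8 genes at the median, and other cells held 0.0128%. The lowest high-score cell stood at 0.2661% and the next cell below it at 0.2658%. In males the median was 0.445%, the lowest high-score cell stood at 0.324% and the next cell at 0.295%. No test belongs to these values, since they defined the cells.

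The 8 genes were shared unevenly among the high-score cells. At least 4 of them were detected in 139 of the 150 female high-score cells and in 7.04% of the other cells, and all 8 were detected in 57 female high-score cells. Irf7 was present in 100% and Isg15 in 98.7% of the female high-score cells, whereas Cxcl10 was present in 59.3%. Cxcl10 was the most uneven, with a median of 1 UMI per high-score cell, up to 98 UMIs in a cell, and the largest count of the 8 genes in 34 cells. Free RNA in the droplets can add single UMIs to any cell, and the other cells had a UMI of Ifit1 in 6.29% and of Irf7 in 55.0% of cases.

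Summed per mouse, Ifit1 in high-score cells of females ran from 513 over a median of 680 to 1188 CPM (UMIs of the gene scaled to a common library total), against 4.42, 6.59 and 9.85 CPM in other cells. Isg15 ran from 539 over 1110 to 1522 CPM in high-score cells, against 32.3, 43.3 and 91.2 CPM. Cxcl10 ran from 502 over 1308 to 4565 CPM, a wider range over mice than that of Ifit1, against 3.45, 7.07 and 22.3 CPM. For all 8 genes the high-score and other cells of the 10 female mice did not overlap, which the choice of cells fixes. In the 9 males with a high-score cell, Ifit1 ran from 342 to 1345 CPM and Cxcl10 from 0 to 1825 CPM, and some mice had no UMI of Ifit2, Rsad2, Cxcl10 or Usp18 in their few high-score cells.

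**Figure D1:**
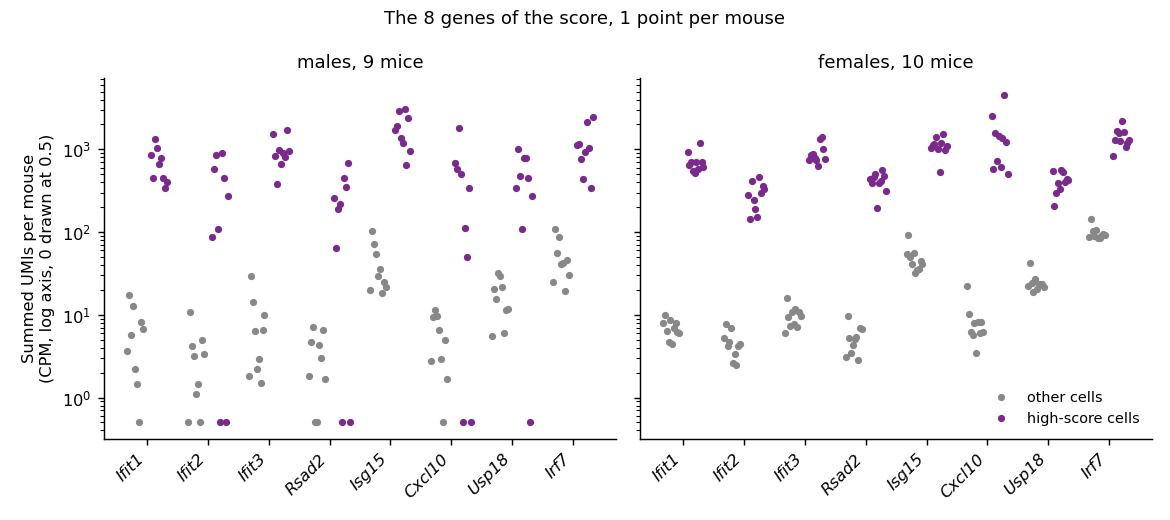
Summed UMIs of the 8 score genes per mouse (CPM, logarithmic axis), in high-score cells (purple) and other cells (grey) of males and females, with values of 0 drawn at 0.5. The female groups are apart for every gene, and Cxcl10 spreads from 502 to 4565 CPM over the females.

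The first comparison asked whether old mice held more of these cells. They did not differ detectably. In old females 0.994%, 2.80%, 1.26%, 1.90% and 2.60% of the cells of the 5 mice were high-score cells, and in young females 0.979%, 2.25%, 1.65%, 2.84% and 1.77%. The groups overlapped throughout, with means of 1.91% ± 0.794 (SD, n = 5) and 1.90% ± 0.695 (SD, n = 5), and the exact permutation test gave p = 0.968 (two-sided, smallest possible p = 0.0079).

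Old males stood at 1.46%, 3.45%, 2.02%, 0% and 7.14%, and young males at 1.13%, 1.49%, 3.57%, 0.787% and 1.64%. The mouse at 0% had 0 of 49 cells, which allows a share of up to 7.25% (exact 95% interval), and the mouse at 7.14% had 4 of 56 cells. The male means were 2.81% ± 2.72 (SD, n = 5) and 1.72% ± 1.08 (SD, n = 5), with p = 0.516 in the exact permutation test, and without the mouse at 7.14% the difference of old minus young fell to 0.0071 percentage points. The age differences of the 2 sexes did not differ from each other in a permutation test (p = 0.506). Young female 4 alone held 51 of the 150 female high-score cells, as it also held 1797 of the 7492 female cells.

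**Figure D2:**
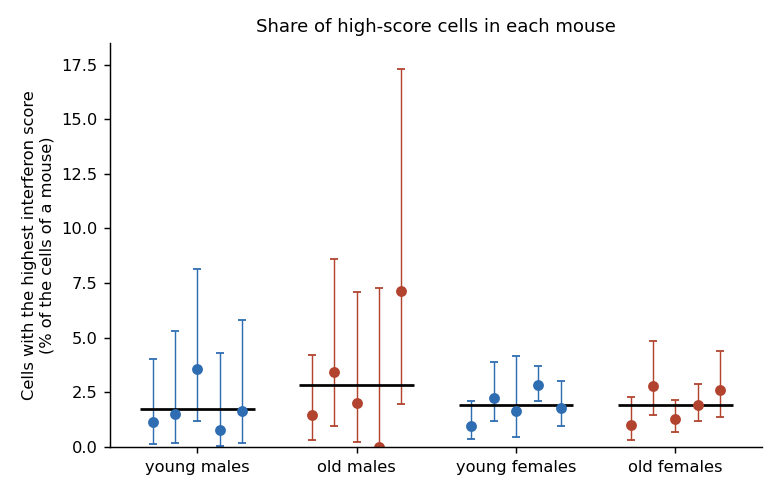
Percent of the cells of each mouse that were high-score cells, with exact 95% binomial intervals (counting error only) and the group mean as a black line. Old and young mice overlap in both sexes, and the intervals of males, with 49 to 206 cells a mouse, are the widest.

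High-score cells carried monocyte genes, and markers of other marrow cells gave a mixed picture. In females the median over mice was 3206 CPM for Ly6c2, the marker of classical monocytes, against 2323 CPM in other cells, and 1390 CPM for Ccr2, the receptor for egress from marrow, against 903 CPM. Summed over the 10 females, high-score cells had 0 UMIs of Ly6g and Mmp9 (neutrophils), Siglech and Cox6a2 (plasmacytoid dendritic cells), Zbtb46 (conventional dendritic cells), Vcam1 (macrophages) and Ms4a1 (B cells), but these were rare in other cells too, with 32, 25, 152, 97, 36, 93 and 32 UMIs. Among the tested genes of these lists, all 3 of the macrophage list were higher (Axl, Adgre1 and Hmox1), 1 of 2 of the plasmacytoid list was higher (Tcf4), 1 of 4 of the conventional dendritic cell list was higher (Naaa) and 1 lower, 1 of 4 of the neutrophil list was higher (Csf3r, log2 fold change 0.82) and 2 lower, and 1 of 1 of the T and NK list was lower. Of all genes tested in this comparison 13.3% were higher and 21.2% lower, and 1 to 4 genes a list are too few to be set apart from that. In the cells low in cycling and granule genes described below, 1 of the 3 macrophage genes was called (Axl), and Adgre1 (-0.14) and Hmox1 (-0.11) turned sign on the log2 scale. Also in those cells, the plasmacytoid list had 1 of 1 tested gene higher (median log2 fold change 1.11). The neutrophil list had 2 of 4 lower there (median -0.56), and the conventional dendritic cell, T and NK and B cell lists had 0 calls. The part of these marker genes in the results below was not tested. The 8 genes of the plasmacytoid list summed to 185 CPM at the median against 63.6 CPM in other cells, and most of it was Tcf4, a transcription factor at 186 CPM on average. The macrophage list summed to 347 against 133 CPM, of which Hmox1 made 118 CPM and Axl was the member with the largest rise (log2 fold change 3.77, SE 0.25). The conventional dendritic cell list summed to 302 against 255 CPM, led by Naaa at 265 CPM. The neutrophil list summed to 213 against 789 CPM (Csf3r most abundant), the T and NK list to 17.0 against 79.0 CPM (Nkg7), the B cell list to 16.2 against 31.6 CPM (Cd79b), the erythroid and platelet list to 14.6 against 7.97 CPM (Hbb-bs) and the basophil and mast cell list to 0 against 1.25 CPM. In males the basophil list ran from 0 to 966 CPM over the 4 mice used below, against 33.2 to 166 CPM in other cells, with Mcpt8 most abundant, and its part in the male results was not tested. Interferon transcripts were near absent. Ifnb1 gave 2 UMIs in all female high-score cells and 3 in other cells, Ifng gave 2 and 7, and the 4 Ifna and 2 Ifnl genes of the list gave 0 in both sexes. Depth also differed, since high-score cells had a median of 7613.5 UMIs in females against 10450.5 in other cells, and 4116 against 4556 in males. With every cell thinned to 2000 UMIs, which changed 25 of the 150 female high-score cells, 761 of 3799 genes were called in the female comparison below, and 721 of them were also called without thinning, all in the same direction.

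All other genes were compared between high-score and other cells of the same mouse, after the 8 score genes had been taken out of the counts, in the 10 females and in the 4 males with at least 3 high-score cells. Genes that follow the same signal as the 8 had to move with the choice of cells. The adjusted p-values (edgeR quasi-likelihood test with the mouse as a block, Benjamini-Hochberg) depend on the size of that move, the counts and the spread over mice together. They are thus no measure of steadiness over mice alone. In females 1073 of 8098 genes tested were higher (13.3%) and 1715 were lower (21.2%) in high-score cells, with a median log2 fold change of -0.13 over all genes. Levels of these genes are given as CPM of the summed UMIs, as the lowest, median and highest mouse.

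The sensors of viral nucleic acid rose. Of 9 genes 8 were tested, 6 were higher and 0 lower, with a median log2 fold change of 2.13. Zbp1, a sensor of left-handed nucleic acid, stood at 413, 489 and 664 CPM in high-score cells against 58.7, 77.2 and 127 CPM in other cells (log2 fold change 2.62, SE 0.11, adjusted p = 6.15e-124), so the lowest high-score value lay above the highest of the others. Ddx58, which codes for the RNA sensor RIG-I, stood at 93.9, 155 and 195 CPM against 10.9, 12.5 and 15.2 CPM (log2 fold change 3.55). Ifih1, which codes for the RNA sensor MDA5, had a log2 fold change of 3.13. Mavs, the adaptor of both, had 13.3 CPM at the median in both classes and was not called (log2 fold change 0.18).

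Among receptors and their signalling proteins, 7 of the 12 tested genes (of 13) were higher and 0 were lower, with a median log2 fold change of 0.63. The receptor chains were not among the larger changes. Ifnar1 stood at 10.4, 56.9 and 113 CPM against 35.2, 42.6 and 52.9 CPM (log2 fold change 0.33, adjusted p = 0.261), and Ifngr1 had a log2 fold change of -0.07 (adjusted p = 0.692). Stat2 stood at 66.0, 169 and 253 CPM against 14.5, 18.1 and 21.5 CPM (log2 fold change 3.21, SE 0.17), and was higher in 10 of 10 mice with no overlap. Irf9, whose product binds that of Stat2, rose by less (log2 fold change 0.67, SE 0.17).

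Of the other IRF factors 5 of 6 were tested, 3 were higher and 1 lower. Irf1, an early target of interferon gamma, rose with a log2 fold change of 2.09 (SE 0.16). Irf8, which drives monocyte and dendritic cell fate, fell from 394, 463 and 525 CPM in other cells to 228, 339 and 410 CPM (log2 fold change -0.49, SE 0.11).

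The antiviral effectors were the largest group. Of 34 genes 31 were tested, 30 were higher and 1 lower, with a median log2 fold change of 2.39, and the list as a whole summed to a median of 22883 CPM in high-score cells against 7820 CPM in other cells. The most abundant member was Ifitm3, a membrane protein that blocks viral entry, at 6666, 8773 and 10481 CPM against 3638, 3743 and 4057 CPM (log2 fold change 1.14, SE 0.07). Samhd1, which depletes nucleotides needed for reverse transcription, had a log2 fold change of 1.71 and Rtp4, a chaperone of receptors, one of 3.62. The member that fell was Ifitm1, at 0, 0 and 22.1 CPM against 5.72, 14.6 and 112 CPM (log2 fold change -1.86).

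The 15 largest rises that held in every female were Ifit1bl1, Ifit3b, Rilpl1, Pydc3, Oasl1, Ifi205, Phf11d, Socs1, Gbp5, Isg20, Phf11a, Trim30c, Gm4955, Mx1 and Gbp2. Ifit1bl1 stood at 31.3, 141 and 300.2 CPM against 0.381, 1.17 and 1.77 CPM (log2 fold change 7.13, SE 0.22) and Ifit3b at 88.0, 201 and 751 CPM against 0.861, 2.12 and 3.44 CPM (log2 fold change 6.65, SE 0.20). Both lie in the Ifit cluster of chromosome 19 (GRCm38, Ifit1bl1 at 34592891 to 34601956 and Ifit3b at 34607970 to 34613401), between Ifit3 at 34583531 to 34588731 and Ifit1 at 34640871 to 34650009. They are close copies of these score genes, reads may be shared with them, and their rise is therefore uncertain and not independent of the score. The same holds between Phf11a and Phf11d, within the Gbp and Trim30 families and for Ifi205 among its p200 relatives.

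Oasl1, an oligoadenylate synthetase-like inhibitor of Irf7 translation, stood at 84.5, 146 and 225 CPM against 1.79, 3.85 and 11.6 CPM (log2 fold change 5.07, SE 0.21). Isg20, an exonuclease of RNA, had a log2 fold change of 4.18 (SE 0.17) and Mx1, a GTPase that traps viral nucleocapsids, one of 3.90 (SE 0.14). Of these 15 genes, picked as the largest steady rises, 14 did not overlap between high-score and other cells and Socs1 did, while 3.46% of all genes tested were higher without overlap. Some of the 15, such as Ifit1bl1, were so low in other cells that they were tested only through their level in high-score cells. The windows of 12 of the 15 were in the RefSeq table, and 7 genes carried the ISRE core. Those of Ifit3b, which carries 2 matches as Ifit3 does, of Socs1 and of Gbp2 follow, marked as above.
Ifit3b (chr19:34607757-34607956, plus strand): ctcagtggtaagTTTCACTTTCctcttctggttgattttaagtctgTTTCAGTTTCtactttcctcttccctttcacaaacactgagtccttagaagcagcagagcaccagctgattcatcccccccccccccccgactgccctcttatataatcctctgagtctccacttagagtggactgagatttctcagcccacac
Socs1 (chr16:10785537-10785736, minus strand): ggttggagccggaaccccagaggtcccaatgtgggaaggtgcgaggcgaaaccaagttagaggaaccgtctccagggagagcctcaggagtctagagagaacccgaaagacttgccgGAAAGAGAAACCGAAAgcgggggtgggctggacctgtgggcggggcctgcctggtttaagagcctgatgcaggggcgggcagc
Gbp2 (chr3:142620463-142620662, plus strand): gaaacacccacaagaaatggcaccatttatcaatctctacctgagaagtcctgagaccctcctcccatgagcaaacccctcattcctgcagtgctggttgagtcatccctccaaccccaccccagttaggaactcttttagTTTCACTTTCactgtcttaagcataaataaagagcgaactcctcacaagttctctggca
Over all genes tested in females, 2.24% of windows carried the core, and it was in 6.61% of the windows of genes that were higher and in 1.41% of those that were lower. The GAS core was in 3 of the 15 windows of the largest rises (Gbp5, Isg20 and Trim30c), in 7.07% of the windows of genes that were higher, in 4.47% of those that were lower and in 4.41% of those of all genes tested.

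The p200 family, which binds DNA, had 6 of 6 measured genes higher, with log2 fold changes from 1.06 for Aim2, the inflammasome sensor, to 4.80 for Ifi205. The enzymes that attach ISG15 or ADP-ribose had 8 of 8 higher (median log2 fold change 2.62). Among these, Herc6, the ISG15 ligase of the mouse, stood at 110.5, 177 and 308 CPM against 14.4, 17.4 and 23.5 CPM (log2 fold change 3.42), and Ube2l6, the conjugating enzyme, had a log2 fold change of 2.76.

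The interferon-gamma inducible GTPases attack vacuoles of intracellular pathogens. Of 13 genes 8 were tested and all 8 were higher, with a median log2 fold change of 3.03. The filter on low counts may have fixed this count in part, as stated above. Ifi47 stood at 597, 841 and 1364 CPM against 59.0, 75.0 and 145 CPM (log2 fold change 3.40, SE 0.10), and Gbp2 at 145, 349 and 858 CPM against 13.8, 21.0 and 138 CPM (log2 fold change 3.85, SE 0.13). Neither overlapped between the classes. The 5 that were not tested included Iigp1, at a median of 42.2 CPM against 0.535 CPM.

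Genes of secreted factors were often too low to test. Of 16 chemokine and cytokine genes 6 were tested and 6 were higher. Il15, a growth factor of NK and memory T cells, stood at 28.9, 79.9 and 150.1 CPM against 11.3, 16.2 and 19.3 CPM (log2 fold change 2.32), Il18 had a log2 fold change of 2.88 and Ccl2, the ligand of Ccr2, one of 3.02. Ccl5, a chemokine for T cells, was higher by 1.66, but in the 1% of cells with the highest score it was lower by 1.45 on the log2 scale. Tnf and Il6 stood at a median of 0 CPM in high-score cells and were not tested.

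Of the 9 genes of negative feedback 6 were tested and 3 were higher. Socs1, which blocks JAK kinases, stood at 10.4, 122 and 308 CPM against 2.15, 4.79 and 20.5 CPM (log2 fold change 4.33, SE 0.22), and the highest other value exceeded the lowest high-score value. Socs3 and Ptpn1 were also higher (log2 fold changes 1.94 and 0.65). The phosphatase gene Ptpn6 stood at 394 against 351 CPM at the median and was not called (adjusted p = 0.569).

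Genes of antigen presentation rose as well. Of 19 genes of MHC-I and peptide loading 17 were higher and 0 lower, with a median log2 fold change of 0.74. Tap1, a chain of the peptide transporter, stood at 290, 341 and 726 CPM against 101, 126 and 238 CPM (log2 fold change 1.44, SE 0.11), and H2-K1, a classical MHC-I chain, had a log2 fold change of 0.74 (SE 0.08). Nlrc5, the activator of these genes, stood at a median of 40.4 against 7.90 CPM (log2 fold change 2.42).

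Of 8 MHC-II genes 6 were tested and 6 were higher, with a median log2 fold change of 2.30. Cd74, the invariant chain, stood at 1076, 5170 and 9633 CPM against 343, 713 and 4728 CPM (log2 fold change 2.28, SE 0.08), and H2-Ab1 at 84.2, 878 and 2348 CPM against 47.1, 119 and 889 CPM (log2 fold change 2.49, SE 0.10). The classes overlapped across mice for both genes, although each mouse was higher in its high-score cells. AW112010, a transcript that regulates cytokines and is annotated as a lincRNA, stood at 157, 412 and 1296 CPM against 39.3, 78.3 and 365 CPM (log2 fold change 2.49, SE 0.11).

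High-score cells also differed in cell cycle and maturation. All 12 genes of the G2 and mitosis list and all 12 of the S phase list were lower, with median log2 fold changes of -2.83 and -2.30. Summed per mouse, the G2 and mitosis list was lower in 10 of 10 mice. The summed S phase list was lower in 9 mice and higher in 1, and reached 1936 CPM in high-score cells against at most 1625 CPM in other cells. Mki67, the proliferation marker, stood at 0, 19.8 and 118 CPM against 256, 284 and 348 CPM (log2 fold change -2.94, SE 0.18). Of 13 genes of the neutrophil-like state 9 were tested and 9 were lower, among them Elane, the neutrophil elastase of granules, at 86.8, 133 and 836 CPM against 1939, 2367 and 2733 CPM (log2 fold change -3.85, SE 0.12). The 10 largest falls that held in every female were Ttk, Ncapg, Haus5, Rad54l, Ccnb1, Shmt2, Ms4a3, Aspm, Rgcc and Sgol1. Ttk, a kinase of the spindle checkpoint, had 0 UMIs in high-score cells and 1948 in other cells, at least 8.28-fold lower against a floor of 3 counts over all females.

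Of 15 genes of the mature classical monocyte 11 were higher and 1 lower in high-score cells, and all 10 tested genes of the early NF-kB response (of 12) were higher. Lyz2, the lysozyme of mature phagocytes, had a log2 fold change of 0.77 (SE 0.07), Csf1r, the receptor of the monocyte growth factor M-CSF, one of 0.93 and Junb one of 0.95. Among genes of the transition to Ly6C-low cells 4 of 7 tested (of 12) were higher and 1 was lower, led by Apoe, the lipid carrier, at 331, 1590 and 3197 CPM against 165, 416 and 508 CPM (log2 fold change 2.10, SE 0.09). Of the dendritic-like list 4 of 7 tested (of 10) were higher, while Cd209a stood at a median of 0 against 32.5 CPM (log2 fold change -0.71, adjusted p = 0.0873).

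Since cycling and granule genes moved with the score, the comparison was repeated in cells with under 0.1% of their UMIs from each of 2 short lists of such genes, a restriction chosen after the data were seen, which kept 137 female high-score cells among 3664 female cells. Of 5837 genes tested, 418 were then higher (7.16%) and 167 lower (2.86%). Of the sensors 5 of 7 were called higher, of the antiviral effectors 28 of 30 were called higher, of the p200 family 6 of 6, of the ISG15 and ADP-ribose enzymes 8 of 8, of the GTPases 8 of 8, of the MHC-I genes 14 of 18 and of the MHC-II genes 5 of 6, with smaller median fold changes. Fewer calls were left among the receptors and signalling proteins (2 of 12 higher and 1 lower, median log2 fold change 0.10), the other IRF factors (2 of 5), the chemokines and cytokines (3 of 5) and the genes of negative feedback (0 of 5). Stat2 then had a log2 fold change of 2.36, Zbp1 of 1.72, Cd74 of 0.98 and AW112010 of 1.85.

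Of the mature monocyte genes 4 were higher and 4 lower, of the NF-kB genes 1 of 9 was higher (Icam1, log2 fold change 1.32), and Lyz2 moved to 0.02 (adjusted p = 0.894) and Irf8 to 0.17 (adjusted p = 0.385). Ly6c2 remained higher (log2 fold change 0.61). Of the list of the transition to Ly6C-low cells 1 of 8 genes was higher (Apoe, log2 fold change 0.70) and the median turned to -0.11, and of the dendritic-like list 2 of 6 were higher and 1 was lower (Cd209a, log2 fold change -1.56). Of the neutrophil-like list 1 of 7 genes was lower (S100a8, log2 fold change -1.01), and the cell cycle genes, which the restriction itself removed, no longer differed detectably. The restriction also removed cells by Elane, Mpo, Prtn3 and Ctsg, which belong to the neutrophil-like list, so the move of that list was in part fixed too. Ifngr1 was lower there (log2 fold change -0.58), which it was not among all cells.

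**Figure D3:**
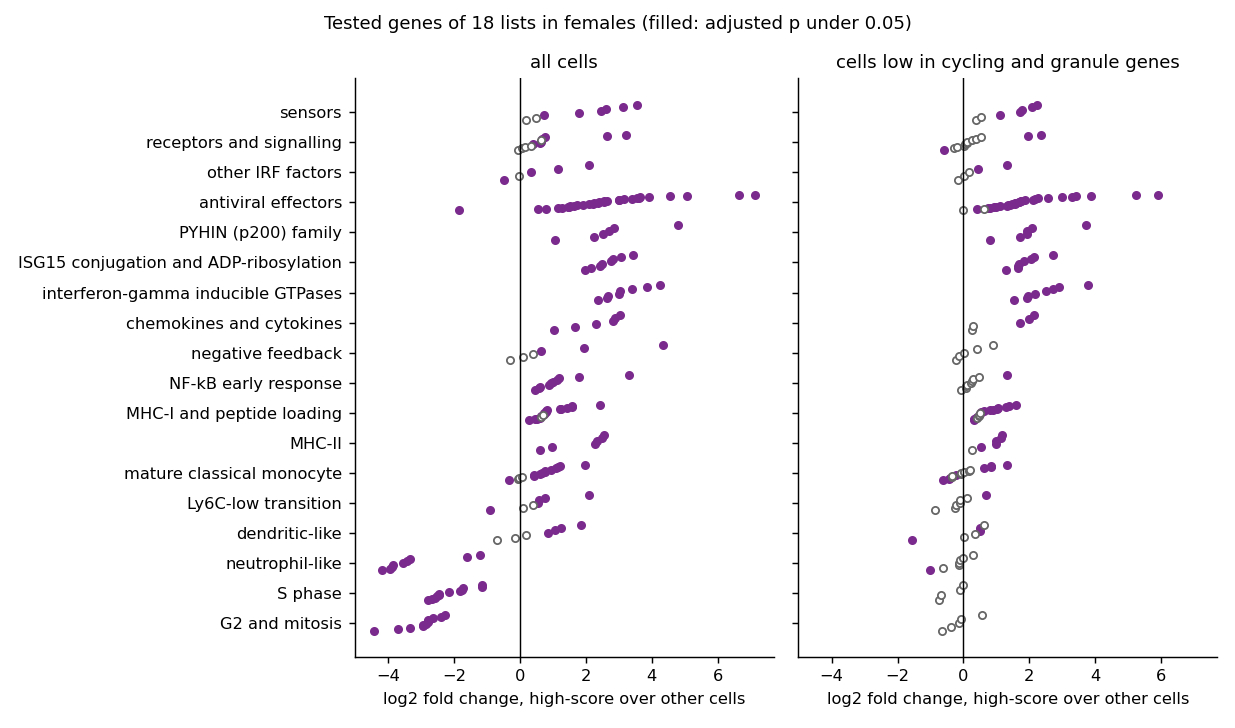
Log2 fold change of each tested gene of 18 lists in females, high-score over other cells, in all cells (left) and in cells low in cycling and granule genes (right), with filled points for adjusted p under 0.05. Most genes of the sensor, effector, GTPase and MHC lists lie to the right of 0 in both panels, Ifitm1 being an exception on the left, while the cycling, neutrophil-like and mature monocyte lists move towards 0 on the right. The restriction itself used genes of the cycling and neutrophil-like lists.

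The male pool gave fewer cells and a smaller test. In 4 males 208 of 2202 genes were called (9.45%), of which 100 were higher (4.54%) and 108 lower (4.9%), with a median log2 fold change of -0.21. Of the antiviral effectors 16 of 18 tested were higher and 0 lower, of the p200 family 5 of 5, of the GTPases 3 of 4, of MHC-I genes 7 of 14 and of MHC-II genes 5 of 6. Of the receptors and signalling proteins 1 of 5 was higher, of the other IRF factors 0 of 3 and of the genes of negative feedback 0 of 2. The neutrophil marker list had 3 of 3 tested genes lower and summed to a median of 237 CPM against 5335 CPM, and its part in the male results was not tested. Ms4a4c, a monocyte membrane protein, stood at 2704, 3262 and 3773 CPM (lowest, median and highest of the 4 mice) against 448, 694 and 813 CPM (log2 fold change 2.25). AW112010 was higher (log2 fold change 2.18, SE 0.33), and S100a8, a calcium-binding protein of neutrophils, had the lowest adjusted p of the male genes (3.62e-09), at 0, 68.5 and 111 CPM against 201.5, 3144 and 3735 CPM (log2 fold change -5.53). Of the 2198 genes tested in both sexes, 204 were called in both, which is 16.6% of the female and 98.6% of the male calls, where 56.0% of the genes tested in both were called in females, and 203 of them had the same direction. The early NF-kB genes had 0 calls among the 4 tested in males.

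Surface antibodies, counted in the female pool only, were not used to choose the high-score cells among the others. All cells had, however, been sorted in the paper as positive for CD11b and CD115 and high in Ly6C. The levels of these surface markers were thus limited by the sort in both classes. CD11b, the integrin of myeloid cells, was higher on high-score cells of 10 of 10 mice, at a mean of 76.2 ± 13.4 (SD, n = 10) UMIs per cell against 50.2 ± 3.99, a log2 difference of 0.59 (exact sign-flip permutation test, p = 0.002, the smallest possible, adjusted p = 0.0059 over 6 antibodies). CD115, the receptor coded by Csf1r, was lower in 10 of 10 mice, at 3.93 ± 1.35 (SD, n = 10) against 5.67 ± 1.26 UMIs, a log2 difference of -0.58 (exact test, adjusted p = 0.0059), whereas Csf1r RNA was higher. The ranges over mice overlapped between the classes for both, from 56.8 to 102 UMIs against 44.3 to 57.3 UMIs for CD11b and from 1.75 to 5.92 UMIs against 3.68 to 8.27 UMIs for CD115.

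Ly6C (log2 difference -0.06, exact adjusted p = 0.502), Flt3 (0.05, exact adjusted p = 0.766) and CD11c (0.23, exact adjusted p = 0.234) did not differ detectably. MHC-II differed by 0.50 (exact adjusted p = 0.234), with 6 of 10 mice higher, and ran from 15.1 to 226 UMIs on high-score cells against 15.0 to 154 UMIs on other cells. As the median per cell MHC-II passed (log2 difference 0.37, exact adjusted p = 0.026, a summary added after the data were seen), and as a share of antibody UMIs MHC-II (0.47) and Ly6C (-0.10) passed. In cells low in cycling and granule genes CD11b was still higher in 10 of 10 mice (log2 difference 0.31, exact adjusted p = 0.0117), and CD115 no longer differed detectably (-0.18, exact adjusted p = 0.262).

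**Figure D4:**
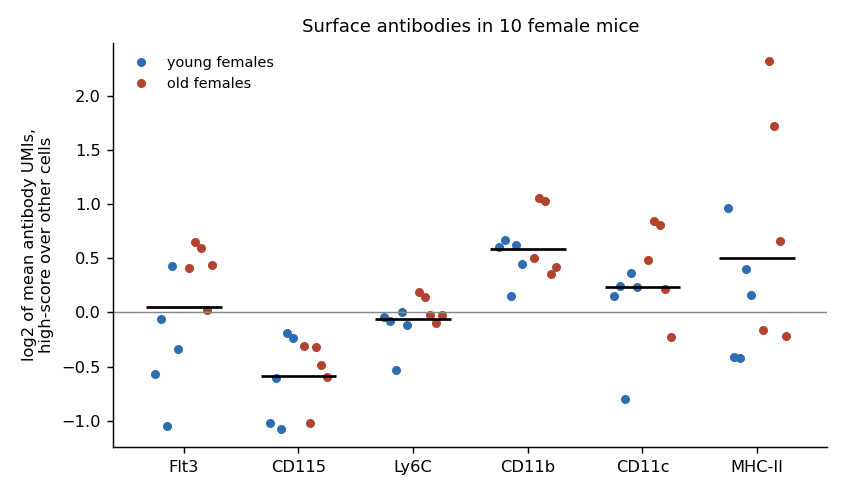
Log2 ratio of mean antibody UMIs, high-score over other cells, for each of 5 young (blue) and 5 old (red) females, with the mean of the 10 mice as a black line. All 10 mice lie above 0 for CD11b and below 0 for CD115, and MHC-II spreads from -0.42 to 2.32.

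The last comparison set old against young females within the high-score cells. The same cut on the score chose old and young cells, so genes that follow the score had little room to differ by age. The absence of age calls among such genes therefore cannot show that age leaves them unchanged. No antiviral effector was called by age, while 4 of 1438 genes tested were higher in old mice (0.278%) and 0 were lower, with 118 genes at an unadjusted p under 0.05. In old high-score cells H2-Aa, an MHC-II chain, stood at 1254, 2776, 1954, 1519 and 1031 CPM and in young ones at 1150, 205, 150.1, 856 and 243 CPM (log2 fold change 1.61, SE 0.34, edgeR adjusted p = 0.036), and the groups overlapped. AW112010 stood at 902, 522, 1296, 994 and 390.3 CPM in old and at 434, 157, 300.2, 293 and 374 CPM in young mice (log2 fold change 1.43, SE 0.28, adjusted p = 0.036), with 1 old mouse below the highest young one.

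Pla2g7, a lipoprotein-associated phospholipase, stood at 110.0, 209, 178, 173 and 177 CPM in old and at 21.7, 12.1, 37.5, 85.9 and 65.5 CPM in young mice (log2 fold change 1.43, SE 0.29, adjusted p = 0.036), without overlap, on 1 UMI each in 3 of the young mice. Fth1, the ferritin heavy chain that stores iron, stood at 3124 to 5104 CPM in old and 2142 to 2945 CPM in young mice (log2 fold change 0.62, SE 0.13, adjusted p = 0.036). All 4 were lost when young female 2, 3 or 5 was left out, 3 were lost without old female 2 and AW112010 was lost without young female 4. With cells assigned by HTODemux 0 genes were called, and DESeq2 called 3, of which Fth1 was the only 1 of these 4. In the 5% of cells with the highest score, 29 of 3730 genes were higher (0.777%) and 9 lower (0.241%) in old mice.

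Other cells showed the same direction for H2-Aa (a mean of 452 ± 391 against 89.4 ± 25.5 CPM, SD, n = 5) and AW112010 (170 ± 111 against 47.1 ± 5.10 CPM, SD, n = 5). The age difference in high-score cells was not shown to differ from that in other cells for either gene (interaction log2 -0.16 and -0.19, adjusted p = 1.0 for both). For Pla2g7 and Fth1 the difference was larger in high-score cells but did not pass (interaction log2 0.75, adjusted p = 1.0, and 0.57, adjusted p = 0.221), with 49.8 against 28.9 CPM and 2390 against 2204 CPM in other cells. Of the 26 tested antiviral effectors 0 were called by age and 10 had a positive fold change (median -0.08, against 0.00 over all genes tested), and of the 6 tested MHC-II genes 1 was called and 6 were positive (median 1.20).

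**Figure D5:**
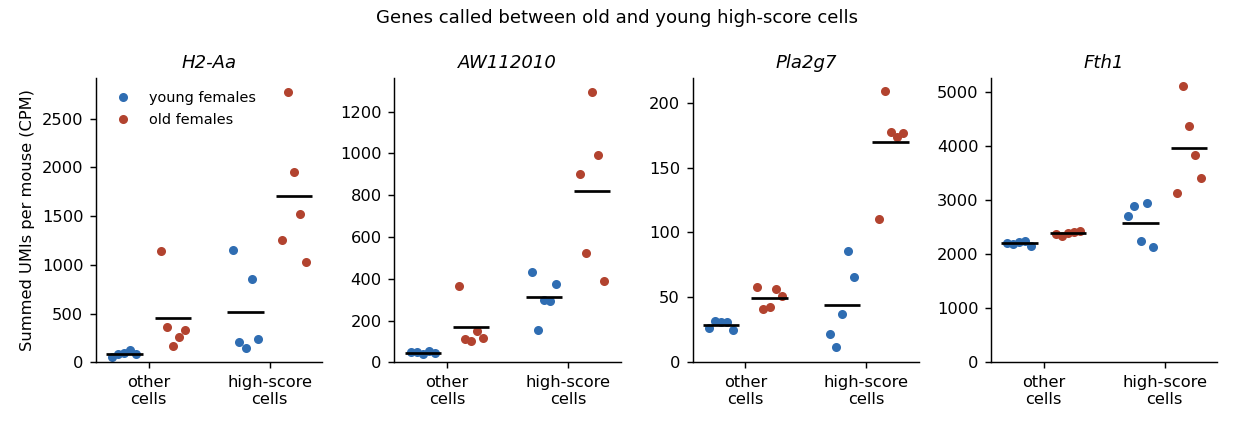
CPM per mouse of the 4 genes called between old (red) and young (blue) females within high-score cells, shown for other cells (left of each panel) and high-score cells (right), with group means as black lines. Pla2g7 and Fth1 are apart in high-score cells, H2-Aa and AW112010 overlap, and all 4 also have a higher mean in old mice among other cells.

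Over 8629 genes, the age difference in high-score cells exceeded that in other cells for 7 genes (0.0811%) and fell short for 0, with 382 genes at an unadjusted p under 0.05. These were Mcm4, Tyms, Gmnn, Mcm3, Top2a, Stmn1 and 2810417H13Rik. Their counts in high-score cells ran from 17 UMIs (Mcm4) to 117 UMIs (Stmn1) in old and from 1 to 57 UMIs, for the same genes, in young females. Mcm4, a helicase subunit, had 17 UMIs in the high-score cells of old females and 1 in those of young females (interaction log2 4.34, SE 1.04, adjusted p = 0.0389), and Top2a, which untangles DNA, had 51 and 15 (interaction log2 1.94, SE 0.44, adjusted p = 0.0266). All 12 tested genes of the S phase list and all 12 of the G2 and mitosis list had a positive interaction, with medians of 1.86 and 0.76 against 0.03 over all genes, and 3 and 1 of them were called. Of the antiviral effectors 4 of 33 had a positive interaction (median -0.20), of the GTPases 2 of 11 (median -0.45) and of the MHC-II genes 2 of 8 (median -0.26), and 0 genes of these lists were called. The common cut on the score limits the age difference in high-score cells for genes that follow the score, and so bears on these values. DESeq2 called 0 genes, and with each mouse left out in turn edgeR called from 1 (without old female 5) to 16 (without old female 2). Old female 1 stood far above the other old mice for Mcm4 (110 CPM) and Mcm3 (330 CPM).

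Mitochondrial UMIs, a sign of cell quality, made up 2.89% ± 0.30 (SD, n = 10) of the UMIs of high-score cells in females and 3.26% ± 0.08 of those of other cells, a difference of -0.37 percentage points that was lower in 9 of 10 mice (exact sign-flip permutation test, p = 0.0039). In the 4 males the difference was -0.20 points (p = 0.625, exact test, which cannot go below 0.125 with 4 mice). The share was highest in the high-score cells of young female 3 (3.38%), which had 4 such cells.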

How the data were processed

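The authors aligned reads of 10x 3′ libraries to mm10 with STAR 2.5.1 and counted UMIs with Cell Ranger 4.0.0, per the labels, and deposited, for each sex, a matrix of raw UMI counts with genes and antibodies in rows and barcodes in columns. The file headers name other software versions (7.0.0 for males, 3.1.0 for females), and which one made the counts could not be settled. The cells, members and gene lists were chosen with earlier results of these data known.

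From the counts, cells were filtered and given to mice by hashtag as stated in the report, which left out barcodes whose leading hashtag fell short (2406 in females, 1278 of them led by the hashtag of young female 4, and 1 in males). Of the 10433 female barcodes 534 had 5% or more mitochondrial UMIs and 7 had 200 genes or fewer. Both counts were 0 among the 1227 male barcodes, and whether the male file had been filtered before was not tested. No other doublet caller was used for the main results. HTODemux, which also calls doublets, served as an alternative and kept 6641 female and 826 male cells as singlets. The 21 female barcodes that the hashtag rule left out and that reached the score of the lowest high-score cell were not used. Counts were summed per mouse and class without the 8 score genes, for mice with at least 3 high-score cells. Library totals were 26646 to 419309 UMIs for high-score and 2796057 to 21282705 UMIs for other cells of females, and 11539 to 19879 and 312418 to 1096638 UMIs in males, so that the high-score cells limited the precision. Intervals cover counting error only.

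Genes were tested with edgeR 4.0.16 (quasi-likelihood test, TMM, filterByExpr, mouse as a block in comparisons within mice, Benjamini-Hochberg, threshold 0.05), and DESeq2 1.42.0 was an alternative, as was assignment by HTODemux in Seurat 5.3.0. The block pairs high-score and other cells of the same mouse. Shares were compared by an exact permutation test over 5 against 5 mice, and antibodies and mitochondrial shares by an exact sign-flip permutation test over mice. The text names the 15 largest rises and 10 largest falls among called genes that moved the same way in every female and reached 20 CPM in the higher class, up to 4 abundant and any called members of each list, and the genes called by age. Uncalled list members such as Mavs, Ifnar1, Iigp1, Tnf and Il6 were added after their values were seen. The fit was tested on simulated data. In simulations, the share of 100 changed genes recovered at a log2 change of 2 was 93% for the female comparison within mice, 66% for the male one, 22% for old against young and 43% for the age effect between classes. Changed genes were drawn from those that passed the filter by class, and genes that a comparison did not test counted as missed. The simulated fit tested 1590 genes for old against young and 8069 for the female comparison within mice. Promoter windows came from a RefSeq table on GRCm38.p6 and gene positions from an annotation of GRCm38. A few list members are not reported here.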

Additional observations from a re-analysis of the deposited data

Results flagged for a closer look

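Of 59 groups of samples examined, 10 held a mouse farther from the rest than Dixon's limit, and chance flags about 1 group in 20. For the surface antibody Ly6C, young female 3, with 4 high-score cells, stood at a log2 difference of -0.536, against -0.12 to 0.18 in the other mice.

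For 5 of the largest falls, a single mouse with a UMI in its high-score cells stood apart from mice with few or none (log2 difference with 10 CPM added to both values). The mouse was young female 2 for Haus5 (-0.529), old female 2 for Rad54l (-0.784), old female 4 for Shmt2 (-1.08), old female 1 for Rgcc (-0.254) and old female 5 for Sgol1 (-0.904). Among the genes whose age difference was larger in high-score cells, old female 1 was far above the other old mice for Mcm4 (110 CPM, the others 10.4 to 29.5 CPM) and Mcm3 (330 CPM, the others 10.4 to 88.4 CPM). Young female 4 was the single young mouse with Mcm4 (2.38 CPM), and young female 2 stood at 36.2 CPM for Gmnn against at most 7.15 CPM in the other young mice.

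Of the female barcodes left out by the hashtag rule, 0.873% (21 of 2406) had a score as high as the high-score cells.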

How the results depend on the processing

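The old minus young difference in the share of high-score cells passed the test under no alternative, and ranged from 0.0071 to 1.79 percentage points in males and from -0.21 to 0.25 in females with each mouse left out in turn. Of the 99 genes named for females, DESeq2 kept the direction and call of 98. Restricting the cells to those low in cycling and granule genes (added after seeing the data) gave 585 calls, and thinning to 2000 UMIs gave 761. With each mouse left out, 2346 to 2995 genes were called in females. Without the block for the mouse, which pairs the classes, 2995 genes were called in females and 236 in males, against 2788 and 208 with it. Calls were higher in high-score cells for 38.5% in females, and for 26.7% in the highest 1%, 48.2% in the highest 5%, 51.4% with at least 4 of the 8 genes and 71.5% in the restricted cells. In males 48.1% were higher, against 69.5% with DESeq2, 67.7% after thinning, 28.2% with all mice that had a high-score cell and 11.4% without a filter on low counts. Leaving out old male 5 gave 35.6% and leaving out young male 3 gave 64.1%.

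Signs turned for Ccl5 (-1.45) and Itgal (-0.013) in the highest 1%, for Itgal (-0.17) after thinning, and in the restricted cells for Irf8 (0.17), Ifitm2 (-0.0075), Cx3cr1 (-0.25), Itgal (-0.10), Mpo (0.29), Top2a (0.57), Hmox1 (-0.11) and Adgre1 (-0.14). In males without a filter on low counts they turned for H2-D1 (-0.12), B2m (-0.11) and Lyz2 (-0.060). The cause was not tested. Male calls numbered 131 with DESeq2, 528 without a filter, 439 with all mice that had a high-score cell, 560 in the highest 5%, 73 with HTODemux, 65 after thinning, and 68 (without old male 1) to 188 with each mouse left out.

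Age calls within high-score cells numbered 37 without a filter, 1 in the highest 1%, 38 in the highest 5%, 0 with HTODemux and 0 (without young female 2, 3 or 5) to 13 (without young female 1) with each mouse left out. Calls of the age effect between classes numbered 0 with DESeq2, 14 with library size alone, 12 in the highest 5% and 1 (without old female 5) to 16 (without old female 2) with each mouse left out. Among antibodies, CD115 no longer passed in the restricted cells (-0.18). Ly6C passed as a share (-0.10) and in the highest 5% (-0.16), MHC-II passed as a median (0.37) and as a share (0.47), and CD11c ran from 0.16 to 0.35 with each mouse left out, passing without young female 3. For males, fits with at least 5 high-score cells per mouse or in the highest 1% were not run, since too few mice remained. In simulations 22% of genes changed by 2 on the log2 scale were recovered between old and young high-score cells, so that many differences of that size would be missed. Genes that the filter on low counts left untested are among those missed. The 22% is therefore not the share recovered among the genes tested by age.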
